A study of Mus musculus with 36 samples.

Results

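The 10 chemokine genes Ccl2, Ccl3, Ccl4, Ccl5, Ccl6, Ccl9, Ccl12, Cxcl10, Cxcl16 and Cxcl12 were followed through an RNA-seq time course of a mouse model of late-infantile neuronal ceroid lipofuscinosis (LINCL, CLN2 disease). They were picked by gene symbol and are 10 of the 53274 genes listed at all 3 ages. In Tpp1-/- mice the gene for tripeptidyl peptidase 1, a lysosomal protease, was disrupted by gene targeting in the whole animal, and bulk RNA was taken from forebrain/midbrain (F/M) and cerebellum (Cb). The 36 libraries fall into 12 groups of 3 mice each, namely Tpp1-/- and control mice at 1, 2 and 3 months in both regions. Whether the F/M and Cb libraries of an age came from the same mice was not stated. The control mice were labelled wild type, except that control replicate 3 at 1 month was labelled Tpp1+/- in both regions, and at 3 months the Tpp1 level of all 6 control libraries went against that label. Both genotypes came from Tpp1+/- parents, and each control group had the same sexes as its Tpp1-/- group, only males at 2 months and both sexes at 1 and 3 months. No other allele or treatment was given for any group.

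Chemokines are small secreted proteins that steer moving cells by binding G protein-coupled receptors. In the CC family the first pair of conserved cysteines is adjacent, and in the CXC family 1 residue lies between them. Ccl3, Ccl5, Ccl6 and Ccl9 bind Ccr1, and Ccl4 is an inflammatory CC chemokine closely related to Ccl3. Ccl2 and Ccl12 are ligands of Ccr2, through which monocytes leave the bone marrow and enter tissue. Cxcl10 is an interferon-induced ligand of Cxcr3, the receptor of activated T cells. Cxcl16 is made as a membrane-bound ligand of Cxcr6, and Cxcl12 is a homeostatic ligand of Cxcr4 and Ackr3 that guides migrating neurons in the developing brain. In brain, microglia are a well-known source of several of the CC chemokines, whereas Cxcl12 is made by endothelium, meninges and some neurons.

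All 10 genes are protein coding. In the files (GRCm38) 7 of them lie within chromosome 11 between bases 82035571 and 83664683. Ccl2 (chr11:82035571-82037453, plus strand) and Ccl12 (chr11:82101845-82103400, plus strand) are followed by Ccl5 (chr11:83525778-83530518, minus strand), Ccl9 (chr11:83572919-83578636, minus strand), Ccl6 (chr11:83587882-83593087, minus strand), Ccl3 (chr11:83647844-83649355, minus strand) and Ccl4 (chr11:83662584-83664683, plus strand). Cxcl16 lies elsewhere on the same chromosome (chr11:70453983-70459984, minus strand), Cxcl10 on chromosome 5 (chr5:92346638-92348889, minus strand) and Cxcl12 on chromosome 6 (chr6:117168535-117181367, plus strand).

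A promoter sequence was at hand for 6 of the 10 genes. The 250 bases before the start are shown for Ccl3, Ccl6 and Cxcl10, the genes called at 3 months, and for Ccl9, whose gene neighbours Ccl6. Sequences are from RefSeq (GRCm38.p6), all on the minus strand, at chr5:92348890-92349139 for Cxcl10, chr11:83649379-83649628 for Ccl3, chr11:83593088-83593337 for Ccl6 and chr11:83578637-83578886 for Ccl9. Capitals mark matches to 3 motifs, the NF-kB kB site, ISRE (TTTC, any 2 bases, TTTC) and AP-1 (TGANTCA), searched on both strands.
Cxcl10: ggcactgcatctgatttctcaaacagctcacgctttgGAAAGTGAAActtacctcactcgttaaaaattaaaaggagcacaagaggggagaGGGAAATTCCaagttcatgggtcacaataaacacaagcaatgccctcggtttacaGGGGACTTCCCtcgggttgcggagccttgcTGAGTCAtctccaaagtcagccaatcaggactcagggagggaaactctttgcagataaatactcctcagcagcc
Ccl3: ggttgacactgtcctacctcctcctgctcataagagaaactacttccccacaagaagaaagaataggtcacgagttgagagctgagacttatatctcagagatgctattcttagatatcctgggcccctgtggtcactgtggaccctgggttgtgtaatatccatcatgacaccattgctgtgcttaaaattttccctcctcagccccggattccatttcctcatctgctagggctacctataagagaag
Ccl6: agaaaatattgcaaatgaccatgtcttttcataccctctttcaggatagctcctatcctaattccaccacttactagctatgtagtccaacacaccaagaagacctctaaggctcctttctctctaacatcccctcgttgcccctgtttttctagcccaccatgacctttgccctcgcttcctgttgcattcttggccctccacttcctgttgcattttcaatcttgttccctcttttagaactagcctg
Ccl9: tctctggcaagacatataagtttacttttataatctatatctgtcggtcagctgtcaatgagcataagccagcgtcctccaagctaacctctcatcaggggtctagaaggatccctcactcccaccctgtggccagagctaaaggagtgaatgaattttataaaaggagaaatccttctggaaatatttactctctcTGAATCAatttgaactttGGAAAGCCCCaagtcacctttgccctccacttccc

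The Cxcl10 window held an ISRE, the element bound by interferon-activated factors, as GAAAGTGAAA from 213 to 204 bases before the start. It also held a kB site, GGGAAATTCC, from 159 to 150 bases before the start, and an overlapping pair of kB sites, GGGGACTTCC and GGGACTTCCC, between 104 and 94. An AP-1 match, TGAGTCA, stood from 74 to 68 bases before its start. The Ccl9 window held 1 kB site, GGAAAGCCCC, from 35 to 26 bases, and 1 AP-1 match, TGAATCA, from 53 to 47 bases before the start. No match to these letters was found in the windows of Ccl3, Ccl6, Ccl12 or Cxcl12, and none of the 6 windows held the PU.1 motif GAGGAAG. Over 32851 promoter windows of that length, 7.25% held a kB site, 2.98% an ISRE, 6.75% an AP-1 match and 10.6% the PU.1 motif.

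Levels are given as CPM, counts divided by the library's total and scaled by TMM normalization, and as raw counts where a gene was near the detection limit. That limit was set at 3 counts, which equals 0.101 to 0.287 CPM, since libraries held 10609896 to 29942380 counts (median 21049839). Genes were called differentially expressed between Tpp1-/- and control where edgeR's quasi-likelihood test over all genes gave an adjusted p below 0.1 and the fold change reached 1.5. Tpp1 itself was at 16.1 to 27.8 CPM in the 18 Tpp1-/- libraries and higher in every control library. Among controls of 1 month, the libraries labelled wild type had 69.7 to 74.4 CPM in F/M and 87.8 to 89.5 CPM in Cb, and the Tpp1+/- libraries 46.6 and 55.9 CPM. The 2-month controls had 91.5 to 94.8 CPM in F/M and 110 to 111 CPM in Cb. The 3-month controls, all labelled wild type, had only 42.1 to 43.4 CPM in F/M and 50.8 to 56.0 CPM in Cb, near the level of the 1-month Tpp1+/- libraries. The Tpp1 level thus separated Tpp1-/- from control libraries at each age but went against the wild-type label at 3 months, where genotype and the counting of that age cannot be told apart. Control at 3 months below means the libraries labelled wild type. Cerebellar marker genes summed to group means of 3812 to 4357 CPM in Cb and 230 to 275 CPM in F/M over the 3 ages. In bulk tissue, fewer or more cells of a type and less or more RNA per cell cannot be told apart. Each age was counted with its own annotation release, and 2 months with another strand setting than 1 and 3 months, and so the effect of age and that of the counting cannot be told apart either.

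In control mice only Cxcl12 was abundant. Per kilobase of exon, its level in F/M at 3 months was 7.84 ± 0.268 CPM per kb (SD, n = 3), and no other chemokine gene overlapped it. It was followed by Ccl6 (0.810 ± 0.0503), Ccl12 (0.613 ± 0.18) and Ccl9 (0.574 ± 0.0703), whose ranges overlapped each neighbour in that order. Cxcl16 came next (0.368 ± 0.174), below the range of Ccl9. The remaining 5 genes, Cxcl10, Ccl3, Ccl4, Ccl2 and Ccl5, ran from 0.115 down to 0.0348 CPM per kb with overlapping neighbours, which is 0 to 8 counts in each library. In control Cb the order behind Cxcl12 (7.59 ± 0.676) was Cxcl16 (0.486 ± 0.129), Ccl6 (0.35 ± 0.0522), Ccl12 (0.313 ± 0.246) and Ccl9 (0.227 ± 0.192), and every neighbour below Cxcl12 overlapped the next.

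Between regions of the control mice, Ccl9 and Ccl6 were lower in Cb than in F/M. Ccl9 was lower at all 3 ages, by a log2 difference (Cb minus F/M) of -1.50 at 1 month, -1.37 at 2 months and -1.34 at 3 months, with edgeR adjusted p of 0.000641, 0.00565 and 0.0277. Ccl6 was lower in Cb at 1 month (-1.07, edgeR adjusted p = 0.00449) and 3 months (-1.20, edgeR adjusted p = 0.00144), while at 2 months the difference was -0.22 (edgeR adjusted p = 0.562). Of all genes, 21.1%, 21.9% and 19.9% were called lower in Cb at 1, 2 and 3 months. Cxcl16 and Cxcl12 were not called between regions at any age, with log2 differences of 0.19 to 0.42 and of -0.20 to 0.08. The microglial markers, summed over 12 genes, also stood lower in Cb (150 to 191 CPM) than in F/M (440 to 463 CPM) of 3-month control mice, and their part in the regional difference was not tested.

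**Figure D1:**
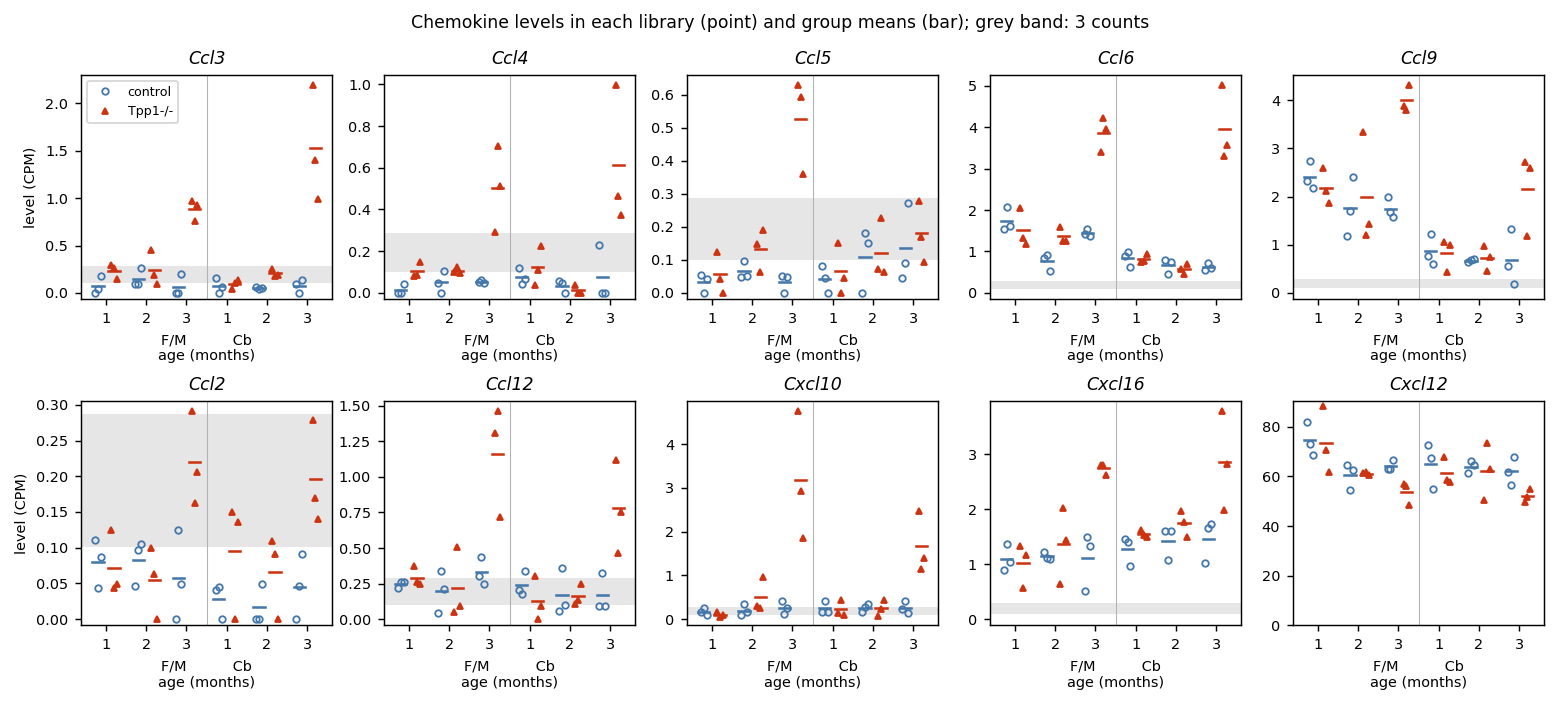
Level of each chemokine gene in every library. Each panel is 1 gene, the y axis is CPM (TMM-scaled), the x axis gives region and age, open blue circles are control and red triangles Tpp1-/- mice (n = 3 each), short bars are group means, and the grey band marks the level of 3 counts. The Tpp1-/- points of Ccl3, Ccl6 and Cxcl10 lie above the control points in both regions at 3 months, and those of Cxcl12 lie below.

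At 1 and 2 months no chemokine gene was called in either region. Only Ccl6, Ccl9, Cxcl16 and Cxcl12 passed the filter on low counts at these ages, so 0 of 4 genes were called, beside 0.0112% of all genes in F/M and 0.0112% in Cb at 1 month and 0.737% and 2.05% at 2 months. At an unadjusted p under 0.05, 1 of the 4 passed in F/M at 2 months, namely Ccl6, where 16.9% of all genes did, and 0 in F/M at 1 month and in Cb at 1 and 2 months, where 1.89%, 7.66% and 9.67% did. Limma-voom called none of them at these ages, and neither did DESeq2, which gave no adjusted p for Ccl6, Ccl9 and Cxcl16 in F/M at 2 months.

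Ccl6 in F/M at 2 months was 0.846, 0.918 and 0.524 CPM in the control mice and 1.59, 1.26 and 1.24 CPM in the Tpp1-/- mice. The groups did not overlap, and the log2 fold change was 0.85 (SE 0.29), which missed the threshold (edgeR adjusted p = 0.154). Tpp1-/- values lay above every control value for 9.46% of all genes in that comparison. At the same age in Cb, Ccl6 was counted 14, 10 and 15 times in control and 16, 10 and 11 times in Tpp1-/- libraries.

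Some groups stood apart at low counts. Ccl3 in Cb at 2 months had 1 count in each control library and 7, 4 and 3 counts in the Tpp1-/- libraries, which did not overlap (7.65% of all genes were higher without overlap there). Fitted without the low-count filter, its log2 fold change was 1.96 (edgeR adjusted p = 0.526). Ccl4 in F/M at 1 month had 0, 0 and 1 counts in control and 2, 2 and 3 in Tpp1-/- libraries, all at or under the limit of 3 counts (8.31% of all genes were higher without overlap). Cxcl16 in Cb at 1 month was also higher without overlap, as were 4.26% of all genes, by 0.29 on the log2 scale (edgeR adjusted p = 0.787). Cxcl10 at 1 and 2 months had 2 to 9 counts in control and 1 to 10 in Tpp1-/- libraries over both regions, and the groups overlapped in each.

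At 3 months Ccl3, Ccl6 and Cxcl10 were upregulated in both F/M and Cb, against control libraries labelled wild type whose Tpp1 level was near that of the Tpp1+/- libraries. These are 3 of the 8 chemokine genes tested in each region, beside 0.464% of all genes called in F/M and 0.859% in Cb (0.412% and 0.673% called higher). The median log2 fold change of the 8 tested genes was 1.62 in F/M and 2.41 in Cb, beside -0.0026 and -0.0027 over all genes. At an unadjusted p under 0.05, 7 of the 8 were higher and 1 was lower in each region, where 5.94% of all genes passed in F/M and 6.49% in Cb in either direction. These 8 include Ccl3, Ccl4, Ccl12 and Cxcl10, which were at or near the limit in the control mice and passed the filter only at this age, so the counts and the median over the 8 describe the tested genes, a set partly fixed by high Tpp1-/- counts, and not the whole list. Over all 10 genes, every Tpp1-/- library lay above every control library for 9 genes in F/M and 7 in Cb, where 11.8% and 4.46% of all genes did so.

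Among the ligands of Ccr1, Ccl3 (macrophage inflammatory protein 1 alpha) had 0, 0 and 4 counts in the control F/M libraries and 20, 14 and 18 counts in the Tpp1-/- ones. In Cb it had 2, 0 and 3 counts in control and 55, 33 and 21 counts in Tpp1-/- libraries. Of the 6 control libraries 3 had no count and 1 exceeded the limit of 3, and neither region had any overlap. The ratio of the counts pooled over each group, scaled by summed library size, was 12.4 in F/M (95% exact counting interval 4.58 to 47.3) and 20.3 in Cb (8.45 to 63.9), and these intervals cover counting error only. The fitted log2 fold change was 3.53 (SE 0.75) in F/M and 4.22 (SE 0.65) in Cb, with edgeR adjusted p of 0.0831 and 0.00572. The F/M value was called in 9 of 16 fits and ranged from 2.95 to 7.22, the highest when control replicate 3, the only control library with a count, was left out. It also missed the threshold with sex as a covariate (edgeR adjusted p = 0.113) or the replicate block (0.149) and without control replicate 1 or 2 or any 1 of the Tpp1-/- libraries. The Cb value was called in all 16 fits.

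Ccl6, a CC chemokine found in rodents, was the best measured of the genes that rose. In F/M its levels were 1.43, 1.55 and 1.38 CPM in control and 3.39, 4.22 and 3.96 CPM in Tpp1-/- mice. In Cb they were 0.557, 0.734 and 0.592 CPM in control and 5.03, 3.30 and 3.57 CPM in Tpp1-/- mice. Each Tpp1-/- library stood far above the control spread, at 70 to 78 counts in F/M and 76 to 126 counts in Cb. The fold change was 2.65 in F/M (log2 1.41, SE 0.21, edgeR adjusted p = 0.00782) and 6.28 in Cb (log2 2.65, SE 0.23, edgeR adjusted p = 2.86e-05). Both calls held in all 16 fits. Although control Cb had less Ccl6 than control F/M, Tpp1-/- Cb (2.21 ± 0.517 CPM per kb) and Tpp1-/- F/M (2.15 ± 0.235) lay at like levels.

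Cxcl10, the interferon-induced CXC ligand, had 8, 2 and 5 counts in control F/M libraries and 98, 54 and 36 counts in Tpp1-/- ones. In Cb it had 5, 9 and 3 counts in control and 62, 27 and 30 counts in Tpp1-/- libraries. The spread within the Tpp1-/- mice was wide, from 1.85 to 4.75 CPM in F/M and from 1.14 to 2.47 CPM in Cb, yet no library overlapped the control range. The fold change was 11.7 in F/M (log2 3.55, SE 0.50, edgeR adjusted p = 0.00509) and 6.35 in Cb (log2 2.67, SE 0.51, edgeR adjusted p = 0.0246). The F/M call held in 16 of 16 fits and the Cb call in 13. In Cb the call was lost without control replicate 1 (edgeR adjusted p = 0.125) or control replicate 3 (0.112), and when only the 6 Cb libraries were fitted (0.109).

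**Figure D2:**
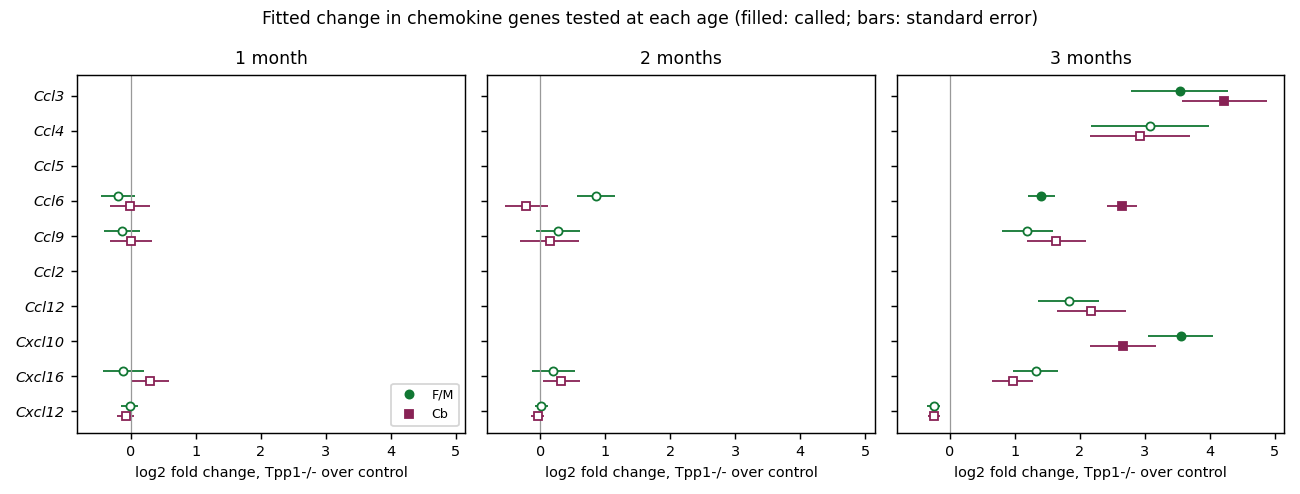
Log2 fold change of Tpp1-/- over control for the tested chemokine genes. The x axis is the edgeR estimate, bars are ± 1 SE, each panel is an age, green circles are F/M and purple squares Cb, and filled points were called at an adjusted p under 0.1 and a fold of at least 1.5. Called points appear only at 3 months, for Ccl3, Ccl6 and Cxcl10.

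Ccl4, Ccl12, Ccl9 and Cxcl16 were tested at 3 months and not called. In a fit without the low-count filter all 4 were called in both regions. That fit called 0.419% of all genes higher in F/M and 0.55% in Cb. It left the log2 fold changes of the 4 nearly unchanged and gave smaller SEs, such as 0.299 in place of 0.448 for Ccl9 in Cb. Its calls of these 4 genes thus differ in the estimated spread and not in the size of the change. Ccl4, the neighbour of Ccl3 on chromosome 11, had 1 count in each control F/M library and 6, 13 and 10 counts in Tpp1-/- libraries, and 5, 0 and 0 against 25, 11 and 8 counts in Cb. No library overlapped in either region, and the ratio of pooled, scaled counts was 9.25 in F/M (95% counting interval 2.87 to 47.4) and 8.21 in Cb (3.26 to 26.5). The edgeR adjusted p was 0.336 in F/M and 0.170 in Cb, and without the filter 0.0161 and 0.00275. All control counts in Cb came from replicate 1, and without it the log2 fold change rose from 2.93 to 6.70 and Ccl4 was called (edgeR adjusted p = 0.0371).

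Ccl12, a Ccr2 ligand related to Ccl2, had 6, 7 and 5 counts in control and 27, 27 and 14 counts in Tpp1-/- F/M libraries. In Cb it had 2, 7 and 2 counts in control and 28, 11 and 16 counts in Tpp1-/- libraries. The groups did not overlap, and the log2 fold change was 1.83 (SE 0.47) in F/M and 2.18 (SE 0.53) in Cb, with edgeR adjusted p of 0.210 and 0.107 (0.0125 and 0.00353 without the filter). The Cb value was called in 5 of 16 fits and ranged from 1.81 to 3.01 over them.

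Ccl9, known also as macrophage inflammatory protein 1 gamma, was 1.99, 1.68 and 1.58 CPM in control F/M and 3.88, 3.79 and 4.32 CPM in Tpp1-/- F/M. In Cb the control values of 0.557, 1.33 and 0.182 CPM overlapped the Tpp1-/- values of 2.71, 1.19 and 2.58 CPM, because control replicate 2 lay above Tpp1-/- replicate 2. The log2 fold change was 1.19 (SE 0.39) in F/M and 1.64 (SE 0.45) in Cb, with edgeR adjusted p of 0.469 and 0.207 (0.00147 and 1.56e-05 without the filter). Without control replicate 2 the Cb value was 2.54 on the log2 scale and was called (edgeR adjusted p = 0.0314).

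Cxcl16, the membrane-anchored ligand of Cxcr6, was 0.510, 1.49 and 1.33 CPM in control F/M and 2.81, 2.81 and 2.62 CPM in Tpp1-/- F/M. In Cb it was 1.02, 1.65 and 1.73 CPM in control and 3.79, 1.99 and 2.82 CPM in Tpp1-/- mice. Both regions were without overlap, with log2 fold changes of 1.32 (SE 0.34, edgeR adjusted p = 0.223) and 0.96 (SE 0.32, edgeR adjusted p = 0.420). Without the filter the edgeR adjusted p was 0.00128 in F/M and 0.0320 in Cb.

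Ccl2 and Ccl5 did not pass the filter at any age, and Ccl2 never exceeded 7 counts. At 3 months Ccl2, the classical monocyte attractant, had 0, 2 and 1 counts in control and 6, 3 and 4 in Tpp1-/- F/M libraries. In Cb it had 0, 1 and 2 counts in control and 7, 4 and 3 in Tpp1-/- libraries. The ratio of pooled, scaled counts was 4.14 in F/M (95% counting interval 1.14 to 22.7) and 4.35 in Cb (1.22 to 23.6), and without the filter the edgeR adjusted p was 0.953 and 0.88.

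Ccl5 (RANTES), which T cells and other leukocytes release, had unlike values in the 2 regions. In F/M it had 1, 0 and 1 counts in control and 13, 11 and 7 counts in Tpp1-/- libraries at 3 months, while in Cb it had 1, 2 and 6 against 7, 4 and 2 counts. The groups were apart in F/M and overlapped in Cb. The ratio of pooled, scaled counts was 14.8 in F/M (95% counting interval 3.77 to 128) and 1.35 in Cb (0.533 to 3.57). Without the low-count filter Ccl5 was called in F/M (log2 fold change 3.69, edgeR adjusted p = 0.00707) and not in Cb (0.40, edgeR adjusted p = 1), with the shares of all genes given above for that fit. Tested directly, the regional difference of its log2 fold changes (Cb less F/M) was -3.28, which did not pass the adjustment over all genes (edgeR adjusted p = 0.843).

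Cxcl12 was the only one of the 8 tested genes with a negative log2 fold change at 3 months. Its levels were 62.9, 62.9 and 66.7 CPM in control and 57.0, 56.0 and 48.6 CPM in Tpp1-/- F/M, and 61.6, 56.7 and 67.7 against 49.8, 51.7 and 55.1 CPM in Cb. All Tpp1-/- libraries were below all control libraries in both regions, as for 12.3% of all genes in F/M and 4.2% in Cb. The log2 fold change was -0.25 in both regions (SE 0.0948 in F/M and 0.0944 in Cb), and with edgeR adjusted p of 0.643 and 0.571 it was not called. It had 944 to 1487 counts in each 3-month library.

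**Figure D3:**
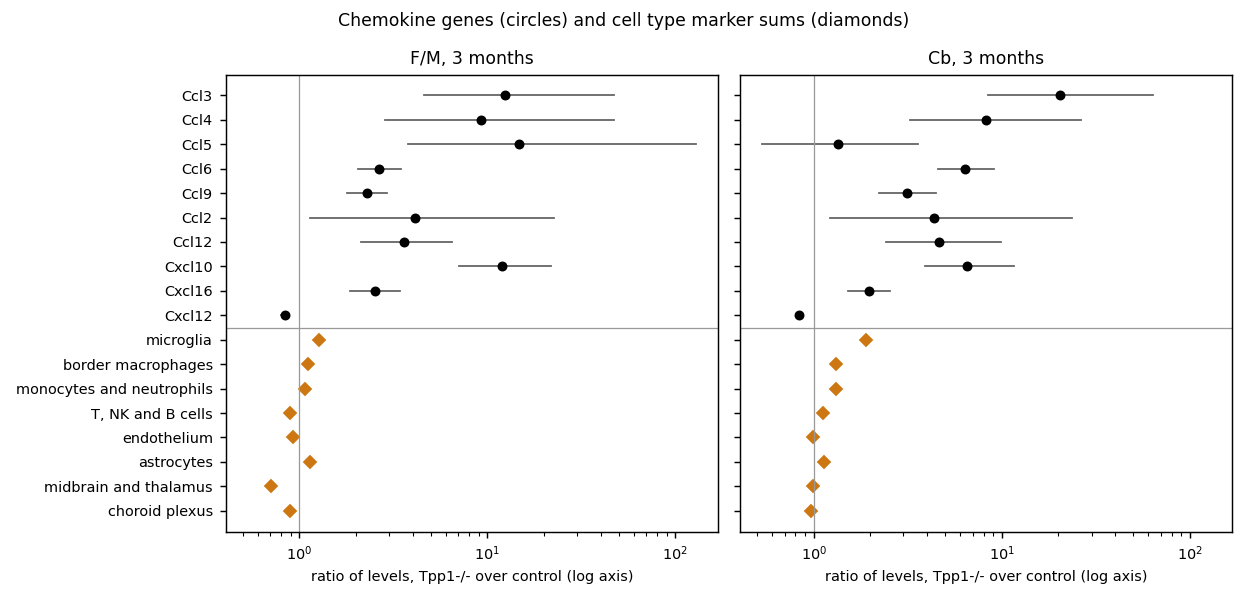
Ratio of Tpp1-/- over control levels at 3 months on a log axis. Points are the chemokine genes, as ratios of pooled counts scaled by library size with 95% exact counting intervals, which leave out the spread between mice, and diamonds are summed levels of cell type marker lists. In F/M the interval of each gene but Cxcl12 lies above 1, and the microglial sum stands at 1.27 in F/M and 1.90 in Cb.

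Among themselves, the chemokine genes changed rank. In Tpp1-/- F/M at 3 months, Cxcl12 (6.59 ± 0.565 CPM per kb) still stood apart from the rest, and was followed by Ccl12 (2.17 ± 0.728), Ccl6 (2.15 ± 0.235), Cxcl10 (1.41 ± 0.651), Ccl9 (1.31 ± 0.0938) and Ccl3 (1.15 ± 0.146), each overlapping the next. Cxcl16 (0.910 ± 0.0362) lay below the range of Ccl3 and overlapped Ccl4 (0.762 ± 0.313), which overlapped Ccl5 (0.551 ± 0.153), and Ccl2 (0.193 ± 0.0575) was lowest and apart. In Tpp1-/- Cb the order behind Cxcl12 (6.38 ± 0.327) was Ccl6 (2.21 ± 0.517), Ccl3 (1.99 ± 0.802), Ccl12 (1.45 ± 0.608), Cxcl16 (0.948 ± 0.298), Ccl4 (0.928 ± 0.509), Cxcl10 (0.744 ± 0.313) and Ccl9 (0.709 ± 0.278), all overlapping their neighbours, with Ccl5 (0.188 ± 0.0971) and Ccl2 (0.173 ± 0.0642) below them. Ccl3 thus moved from rank 9 in control Cb to rank 3 in Tpp1-/- Cb, although neighbouring ranks were not apart.

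Mice of the same group were not alike in these levels. Summed over the 9 genes other than Cxcl12, the level at 3 months was 4.74 to 5.47 CPM in control F/M and 15.5 to 18.3 CPM in Tpp1-/- F/M, and 2.83 to 4.59 CPM in control Cb and 10.3 to 18.9 CPM in Tpp1-/- Cb. In the Cb group, Tpp1-/- replicate 1 had the highest level of 9 of the 10 genes and the lowest of Cxcl12. That library also had the highest sums of microglial markers (404 CPM, against 289 and 316 in the other Tpp1-/- libraries), of monocyte and neutrophil markers (15.7 CPM, against 1.95 and 2.63), of choroid plexus markers (1694 CPM, against 795 and 820) and of forebrain markers (176 CPM, against 117 and 120). Their part in its chemokine levels was not tested. Without it the same number of genes, 3, was called in Cb, and Ccl3, Ccl6 and Cxcl10 had log2 fold changes of 3.87, 2.44 and 2.26, with edgeR adjusted p of 0.00943, 2.21e-05 and 0.0577.

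The Tpp1-/- effect was then compared between the regions by testing its difference (Cb minus F/M). No chemokine gene was called at any age, where 0%, 2.97% and 0.00581% of all genes were called at 1, 2 and 3 months. At an unadjusted p under 0.05 there were 0, 1 and 1 chemokine genes, beside 1.94%, 11.5% and 3.51% of all genes, and the 1 gene was Ccl6 at both later ages. Its difference was 1.24 on the log2 scale at 3 months (SE 0.32, edgeR adjusted p = 0.777) and of the opposite sign at 2 months (-1.07, edgeR adjusted p = 0.342). The Cxcl10 difference at 3 months was -0.88 (edgeR adjusted p = 1).

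Between ages, the Tpp1-/- effect on Ccl6 was larger at 3 months. In Cb it exceeded that at 2 months by 2.87 (SE 0.40, edgeR adjusted p = 2.59e-05) and that at 1 month by 2.67 (SE 0.37, edgeR adjusted p = 9.66e-05) on the log2 scale. In F/M it exceeded that at 1 month by 1.61 (SE 0.32, edgeR adjusted p = 0.0247), and the difference from 2 months was 0.56 (edgeR adjusted p = 0.747). Ccl6 was the only chemokine gene called for an age difference, beside 1.44%, 0.458%, 0.153% and 0.393% of all genes in these 4 comparisons (1.3%, 0.278%, 0.147% and 0.158% larger at 3 months). The F/M difference from 1 month was not called without control replicate 2 or Tpp1-/- replicate 2 or 3 of that age. Cxcl10 had large differences with wide errors, such as 4.27 in F/M between 3 and 1 months (edgeR adjusted p = 0.184) and 2.95 in Cb between 3 and 2 months (0.168). The comparisons of 3 with 1 and 3 with 2 months share the 3-month libraries, whose controls went against their label in Tpp1.

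Of the receptors of these ligands described here, none was called in either region at 3 months. Ccr1, the receptor of Ccl3, Ccl5, Ccl6 and Ccl9, had 3 to 13 counts in any 3-month library and was not tested.

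Ccr2, the receptor of Ccl2 and Ccl12, had 4 to 15 counts, with log2 fold changes of 0.47 in F/M and -0.36 in Cb (edgeR adjusted p = 1 and 0.975). Cxcr3, the receptor of Cxcl10, had 0 to 4 counts, and Cxcr6, the receptor of Cxcl16, had 0 to 1 counts in control and 1 to 4 in Tpp1-/- libraries. Both were too low to test. The Cxcl12 receptors Cxcr4 and Ackr3 had log2 fold changes of 0.66 and 0.28 in F/M (edgeR adjusted p = 0.851 and 0.715) and -0.12 and -0.08 in Cb (0.987 and 0.973).

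Over all 23 chemokine receptor genes, 9 were tested at 3 months and 0 called, with median log2 fold changes of 0.02 in F/M and -0.08 in Cb. At an unadjusted p under 0.05, 1 receptor was higher in F/M (Ackr3) and 1 in Cb (Cx3cr1), where 3.8% and 3.23% of all genes were, and 5 of the 23 never exceeded 3 counts in any library. Cx3cr1, the microglial receptor of Cx3cl1, rose in Cb by 0.56 (SE 0.11, edgeR adjusted p = 0.0259), a fold of 1.47 that lies under the minimum of 1.5. In F/M its log2 fold change was 0.02, and the difference between regions did not pass the adjustment (edgeR adjusted p = 0.928).

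Of 28 other chemokine ligand genes, 7 were tested at 3 months and none was called by edgeR (0 also at an unadjusted p under 0.05 in either region), with median log2 fold changes of -0.02 in F/M and 0.08 in Cb. Of the 28, 10 never exceeded 3 counts in any library. Only Ccl28, a mucosal CC chemokine, was called at any age, in F/M at 2 months, where it was 1.16 ± 0.322 CPM in control and 2.34 ± 0.289 CPM in Tpp1-/- mice (SD, n = 3 each, log2 fold change 1.03, SE 0.26, edgeR adjusted p = 0.0617). In the same comparison the sum of 7 choroid plexus markers was 1.5 times as high in Tpp1-/- as in control mice, and its part in the Ccl28 value was not tested.

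Of 6 proteases that cut chemokines, only Mmp12, macrophage metalloelastase, was called, at 3 months in both regions. Of all genes 0.464% were called in F/M and 0.859% in Cb. Mmp12 passed the low-count filter only at that age, through its Tpp1-/- counts. It had 0 to 1 counts in control F/M and 14 to 22 in Tpp1-/- F/M libraries (edgeR adjusted p = 0.00432), and 1 to 3 against 11 to 25 counts in Cb (edgeR adjusted p = 0.0128).

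**Figure D4:**
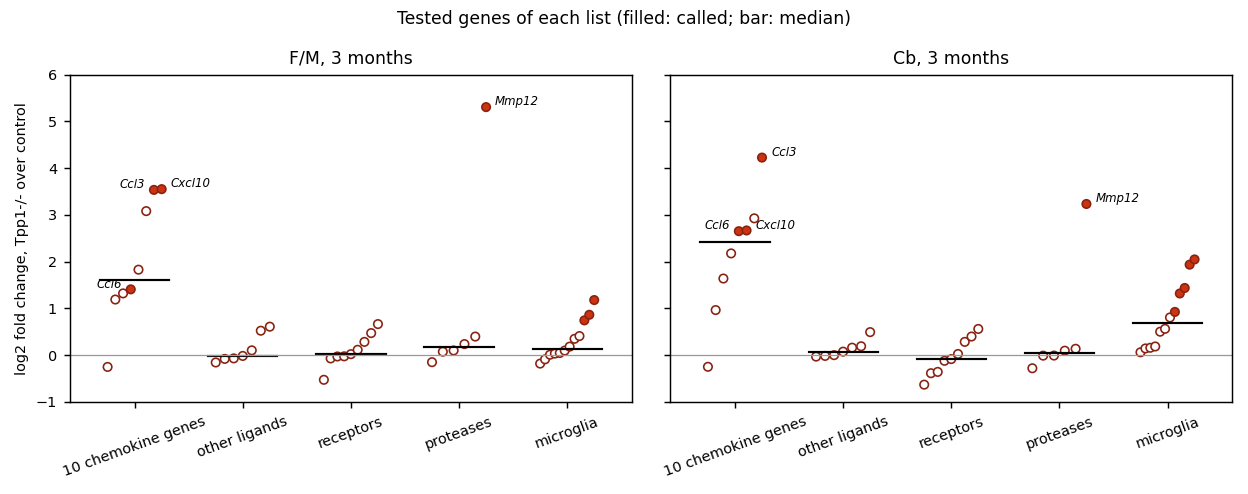
Log2 fold change at 3 months for every tested gene of 5 lists. The y axis is Tpp1-/- over control on the log2 scale, 1 panel per region, each point is a gene, filled points were called, and bars are medians. The medians of the 8 tested genes of the 10-gene list, 4 of which passed the low-count filter only at this age, stand at 1.62 and 2.41, and the medians of other ligands and receptors lie near 0.

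Marker genes of other cell types were summed beside these results. At 3 months the 12 microglial markers summed to 440 to 463 CPM in control and 550 to 606 CPM in Tpp1-/- F/M, a ratio of 1.27. In Cb they summed to 150 to 191 CPM in control and 289 to 404 CPM in Tpp1-/- mice, a ratio of 1.90. In F/M 3 of the 12 were called higher (Fcrls, Cd68 and Ctss), and in Cb 5, these and Aif1 among them. Of all genes 0.412% were called higher in F/M and 0.673% in Cb. In F/M 10 of the 12 had a positive log2 fold change, 1 was lower without overlap, and the median was 0.14. In Cb all 12 were positive, with a median of 0.684. The ratios of Ccl3, Ccl6 and Cxcl10 were above that of the microglial sum in both regions. These 3 genes were picked by a fold of at least 1.5, so their ratios cannot be weighed against that sum. The part of the microglial markers in the chemokine values was not tested.

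The 6 border macrophage markers summed to 9.36 to 10.1 CPM in control and 12.2 to 14.2 CPM in Tpp1-/- Cb, a ratio of 1.32, and to a ratio of 1.11 in F/M. The 8 monocyte and neutrophil markers were low, at 0.739 to 1.37 CPM in control and 0.541 to 1.89 CPM in Tpp1-/- F/M, a ratio of 1.07. In Cb they were 4.59 to 5.41 CPM in control and 15.7, 1.95 and 2.63 CPM in Tpp1-/- mice, so that replicate 1 stood above and the other 2 libraries below every control library. Of these markers 2 were tested at 3 months, and 0 were called. Markers of T, NK and B cells summed to 11.1 to 12.4 CPM in control and 9.16 to 12.5 CPM in Tpp1-/- F/M (ratio 0.888) and to a ratio of 1.12 in Cb. Among the defining markers, Cd3e and Cd3d reached 5 counts, Cd3g, Cd8a and Nkg7 reached 3, Ly6c2 reached 5 and Ly6g reached 4 at most in any library, whereas Cd4, Trac, S100a8 and S100a9 of the same lists reached 254, 59, 159 and 174 counts. Endothelium and meninges are both sources of Cxcl12. Endothelial markers had ratios of 0.923 in F/M and 0.986 in Cb, and meningeal fibroblast markers 1.08 in both regions. In F/M the endothelial sums in Tpp1-/- libraries (246.1, 268.6 and 245.5 CPM) were all below those in control libraries (269.2, 274.1 and 280.0 CPM). In Cb they overlapped, at 266 to 278 CPM in Tpp1-/- and 257 to 285 CPM in control libraries, whereas Cxcl12 was lower without overlap in both regions. Astrocyte markers had a ratio of 1.14 in each region, and their sums did not overlap. The median log2 fold change of the 6 was only 0.015 in F/M and 0.054 in Cb. Of the 6, 1 was called higher in each region, beside 0.412% and 0.673% of all genes. Blood markers were 59.5 to 68.0 CPM in control and 29.3 to 47.5 CPM in Tpp1-/- F/M, a ratio of 0.593. In Cb they were 77.6, 69.7 and 223 CPM in control and 51.9 to 91.7 CPM in Tpp1-/- mice, which overlapped. The part of these lists in the chemokine values was not tested. In F/M, midbrain and thalamus markers were 226 to 247 CPM in control and 149 to 180 CPM in Tpp1-/- mice, a ratio of 0.708, and the part of tissue makeup in the F/M values, that of Cxcl12 included, was not tested.

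For the 4 chemokine genes tested at all ages, the genes with the most similar set of 6 log2 fold changes (3 ages in 2 regions) were sought among 16713 genes, by the root mean square difference. Nearest to Ccl6 were Cd48 (0.356), Lyz2 (0.429) and Treml2 (0.435), and nearest to Ccl9 were Fcgr2b (0.106), AU020206 (0.202) and Gpnmb (0.213). Nearest to Cxcl16 were Hmox1 (0.211), Igsf6 (0.218) and Phyhd1 (0.221), and nearest to Cxcl12 were Rph3a (0.0266), Rims3 (0.0331) and Oxsm (0.0336). As points of each comparison share their libraries, these values describe likeness in these samples.

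Sequence shared with neighbouring or related genes was checked, since it could move reads between them. No 50-base stretch of the exons was shared with another gene on the same strand, except for 59 of 2996 stretches (1.97%) in Ccl9. Cxcl10 overlaps Art3 on the opposite strand over 133 bases (5.91% of its exons), and Art3 had log2 fold changes of -0.27 and -0.07 at 3 months. Cxcl16 overlaps Zmynd15 on the opposite strand over 552 bases (18.3% of its exons), which had 1 to 12 counts in a 3-month library. Within the chromosome 11 group, Ccl7 and Ccl11 reached at most 10 and 5 counts in any library and were not tested.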

How the data were processed

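Total RNA was extracted from F/M and Cb, and stranded mRNA libraries were read as single-end 50-nt reads. The authors aligned reads with STAR 2.5.2b to mm10 and deposited raw counts per gene from featureCounts. Per the file headers, the version was 1.6.3 with strand setting 1 and GENCODE M21 at 1 month, 1.6.2 with setting 2 and M16 at 2 months, and 1.6.2 with setting 1 and M18 at 3 months. All 36 libraries were used, by gene symbol and ID. The chemokine genes and the other lists were chosen with earlier results of these data known, and every one of the 10 was named.

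Counts were tested in edgeR 4.0.16 (R 4.3.3) by the quasi-likelihood test with TMM scaling and filterByExpr, over the 4 groups of each age (17916, 17229 and 17224 genes at 1, 2 and 3 months), two-sided with Benjamini-Hochberg adjustment over all genes tested. Age differences came from all 36 libraries (18322 genes). The SE is the absolute log2 fold change over the square root of F. Alternatives were DESeq2 1.42.0, limma-voom (limma 3.58.1), other scalings, filters and thresholds, a sex covariate, a replicate block and leaving out each library. The procedure was tested on simulated counts. Ratios use 95% exact binomial intervals. The methods describe biological triplicates, taken here as separate mice within each group. The processing notes also name Cufflinks 2.2.1, not used here. Some items are not reported here.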

Additional observations from a re-analysis of the deposited data

Results flagged for a closer look

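The Tpp1-/- effect on Ccl6 differed between ages by a test of the difference itself. In Cb the log2 fold change at 3 months exceeded that at 2 months by 2.87 and that at 1 month by 2.67, and every 3-month Tpp1-/- library was above every 3-month control library. In F/M it exceeded that at 1 month by 1.61, a call that 3 of the 12 fits without 1 library lost. Each age was counted with its own annotation release, and 2 months with another strand setting than 1 and 3 months, and the Tpp1 level of the 3-month libraries labelled wild type was near that of the 1-month Tpp1+/- libraries. Age, counting and control genotype cannot be told apart.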

How the results depend on the processing

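Libraries of 3 per group and control counts at or below 3 limit the low genes. The cause of the changes below was not tested.

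Of 254 recomputed counts of called chemokine genes over 16 results, 232 were within 1.5 times the value given and 22 were not. Many of these results were 0 in the main fit, and 2 against 3 passes as within 1.5 times, so this tally says little about single calls. At 3 months, where 3 genes were called in each region, an unadjusted p under 0.05 with the fold minimum gave 7 in F/M and 7 in Cb (and 1 in F/M at 2 months; without the fold minimum 5.94%, 6.49% and 16.9% of all genes passed), no low-count filter gave 8 and 7, DESeq2 gave 5 in Cb, and fitting only the 6 libraries compared gave 6 in F/M. Leaving out 1 library gave 2 to 3 in F/M and 2 to 5 in Cb, with 5 without Cb control replicate 2 or Tpp1-/- replicate 2. For age differences, 1 gene each, no filter gave 2 in Cb between 3 and 2 months, 3 in F/M and 5 in Cb between 3 and 1 months, the 12 libraries of the ages and region gave 3 in F/M between 3 and 1 months, and leaving out 1 library gave 0 to 1 there, 1 to 2 in Cb between 3 and 1 months and 1 to 2 in Cb between 3 and 2 months. The 2 genes called between control regions at 3 months became 2 to 3.

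Of 470 recomputed log2 fold changes, 26 changed sign, all at 1 or 2 months and none of them called. With DESeq2, sex as a covariate or 6 libraries, Ccl9 in Cb at 1 month was -0.002, -0.002 and -0.008, with limma-voom or library totals Ccl6 there was 0.014 and 0.019, and without a filter Cxcl12 in F/M at 2 months was -0.003. Without 1 library, the ranges at 1 month were -0.187 to 0.113 for Ccl6 in Cb, -0.209 to 0.313 for Ccl9 in Cb, -0.183 to 0.012 for Cxcl12 in Cb, -0.172 to 0.093 for Cxcl12 in F/M and -0.371 to 0.182 for Cxcl16 in F/M. At 2 months they were -0.206 to 0.401 for Ccl9 in Cb, -0.429 to 0.553 for Ccl9 in F/M, -0.182 to 0.093 for Cxcl12 in Cb, -0.059 to 0.059 for Cxcl12 in F/M and -0.296 to 0.621 for Cxcl16 in F/M.

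Replicate numbers were not taken to pair the samples, since at no age did every same-numbered pair have deviations correlated over 0.1. Between control and Tpp1-/- libraries 4, 2 and 0 of 6 pairs did at 1, 2 and 3 months, and 10, 6 and 8 of 12 libraries correlated best with their own number. Between F/M and Cb 5, 0 and 0 of 6 pairs did, and 12, 7 and 4 of 12 libraries, a hint of shared mice at 1 month (0.095 to 0.198) that the labels do not state. The sex labels of F/M and Cb libraries with the same number were alike at every age. The main regional tests took all libraries as independent, which would not hold if the regions came from the same mice. With the number as a replicate block, F/M gave 2 genes at 3 months (Ccl3 was lost, edgeR adjusted p = 0.149), and the age difference in F/M between 3 and 1 months rose to 2. Of these counts 15 of 16 stayed within 1.5 times, where 2 against 3 passes as within. The 16 include the regional tests, fitted with the same number taken as 1 mouse.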
